A study of Canis lupus familiaris with 26 samples.

Results

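The corpus luteum (CL) of control dogs was compared between day 10 and day 20 after ovulation, the step from the developing to the mature gland. All control samples of these days were taken by their sample labels, which gave 3 control dogs on day 10 and 3 on day 20, that is 6 of the 26 samples of the series. The dogs were bitches of mixed breed and differing age, and day 0 was the day on which circulating progesterone indicated ovulation. Controls received no firocoxib, the PTGS2 (COX2) inhibitor given to the treated dogs at 10 mg/kg per day. The methods and the treatment protocol speak of a placebo, while the design text calls the controls untreated. The other 7 control samples, 4 of day 5 and 3 of day 30, entered the fit to estimate the spread between dogs. Each sample was CL tissue dissected from 1 dog, so it held luteal cells together with vessels, stroma and immune cells. In such bulk samples fewer cells of a type and less RNA per cell cannot be told apart.

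The CL forms from the follicle wall after ovulation and secretes progesterone, which in the dog comes from no other source during pregnancy. Luteal cells take up cholesterol or make it, shorten its side chain in the mitochondria, and convert the product to progesterone. While the gland forms, endothelial cells, fibroblasts and luteal cells divide and the matrix is remodelled, and prostaglandin E2 made by PTGS2 and PTGES is known to support the young canine gland. Later the gland depends on the pituitary, chiefly on prolactin. The identifiers of STAR, CYP11A1, HSD3B2 and SCARB1, the usual markers of luteal cells, were not paired with a name here, so these genes were not analysed here. Of the markers that were, FDX1, the electron donor of side chain cleavage, had between 862 and 1584 CPM in the 6 samples. CPM are read counts scaled to a common library size, with TMM factors. PRLR, the prolactin receptor, had 155 to 385 CPM, and LHCGR, the receptor of luteinizing hormone, 15.1 to 113 CPM.

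Total counts of the day 10 controls were 12831896, 21405040 and 18891338 reads for samples 2, 3 and 4. Those of the day 20 controls were 17178990, 20156161 and 19815004 reads for samples 1, 2 and 3. Within day 10 the Pearson correlation of log2 CPM between samples, across genes, was 0.948 to 0.954, and within day 20 it was 0.945 to 0.964. Between the days it ran from 0.878 to 0.942. Day 20 control 3 was the sample nearest to day 10, with correlations of 0.936 to 0.942 to the 3 earlier samples, against 0.878 to 0.914 for the other two. Counts of any 2 samples of a day differed by far more than sampling noise (chi-square per degree of freedom of at least 55.8), so no sample repeated another.

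Markers of other cells set some of the samples apart. Day 10 controls 2 and 3 were high in genes known from oocytes, with 133 and 143 CPM summed over 13 oocyte markers, against 10.3 CPM in day 10 control 4 and 6.07 to 9.91 CPM in the day 20 controls. BMP15, an oocyte growth factor, had 37.8, 34.8 and 1.91 CPM in day 10 controls 2, 3 and 4, and 0.472, 0 and 0 CPM in day 20 controls 1, 2 and 3. ALAS2, the haem synthesis enzyme of red cell precursors, had 4.06 and 4.58 CPM in day 10 controls 2 and 4, and at most 0.270 CPM in the other 4 samples. Their part in the results was not tested.

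Principal components of the 13 controls were computed from the 2000 most variable genes. The first, with 42.3% of the variance, separated days 10 and 20. The scores of the day 10 controls were -29.2, -30.6 and -26.4, and those of the day 20 controls 61.1, 39.9 and 21.4, with day 5 on the side of day 10 and day 30 on that of day 20. The Euclidean distance between the means of days 10 and 20 was 77.7 on the log2 scale, and no other division of the 6 samples gave a larger one (p = 0.1 by a two-sided exact permutation test, which cannot go lower with 3 samples on each side). The distance between the means was 42.3 for days 5 and 10 and 44.4 for days 20 and 30. These distances share samples, and their difference was not tested. Single samples of the same day lay on average 67.4 apart on day 10 and 65.5 apart on day 20, and samples of different days 94.0 apart. The mean distance of day 20 controls 1, 2 and 3 to the day 10 samples was 108, 95.8 and 78.1.

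**Figure D1:**
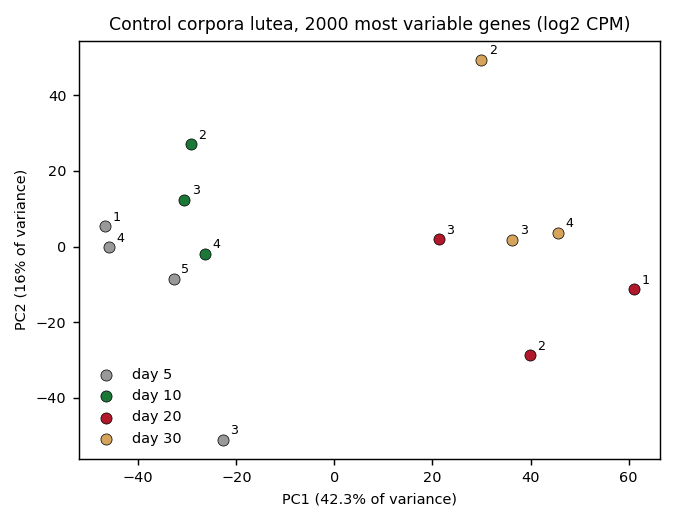
Scores of the 13 control samples on the first (x) and second (y) principal component of log2 CPM over 2000 genes, coloured by day, with the sample number beside each point. The day 10 samples lie between -30.6 and -26.4 on the first component and the day 20 samples between 21.4 and 61.1, with sample 3 nearest to day 10.

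From day 10 to day 20, 1469 of 13478 genes (10.9%) passed both thresholds, an unadjusted P under 0.01 and an FDR under 0.1, in edgeR's quasi-likelihood test on the 13 controls. The FDR is the P-value adjusted by Benjamini and Hochberg over all genes tested. Of these genes 805 (5.97%) rose and 664 (4.93%) fell. At an unadjusted P under 0.05 there were 4069 genes (30.2%). The median log2 fold change was 1.22 among the genes that rose and -1.47 among those that fell, and 1061 genes changed by at least 1 on the log2 scale. Leaving the 10 most counted genes out before scaling turned the split to 603 up and 803 down (42.9% up, against 54.8%), while RLE factors gave 736 up and 729 down. In 4877 genes (36.2%) the 3 samples of one day all lay above the 3 of the other.

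All genes with an unadjusted P under 0.01 had an FDR of at most 0.0917, so the count stood close to the FDR threshold and fell steeply when a sample was removed. Without day 10 control 4 it was 1, without day 20 control 1 it was 32, and without day 10 control 2 or day 20 control 2 it was 94. Without day 10 control 3 it was 666, and without day 20 control 3, the sample nearest to day 10, it rose to 2043. With the P threshold alone, an alternative added after the data were seen, these 6 fits gave between 546 and 2043 genes. Of the 1469 genes, 1468 or all 1469 kept their direction in each of these fits, which share at least 5 of the 6 samples compared with the full fit.

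**Figure D2:**
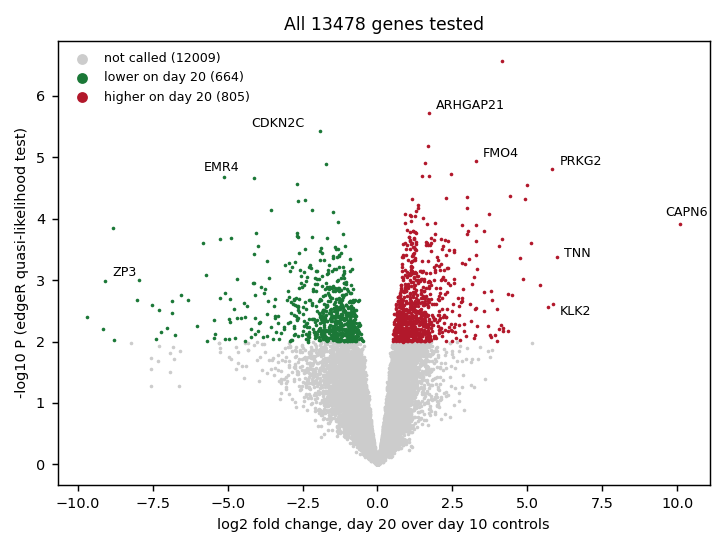
Log2 fold change of day 20 over day 10 controls (x) against -log10 P of edgeR's quasi-likelihood test (y) for 13478 genes, with genes past both thresholds in colour. The 805 genes that rose and the 664 that fell begin at the P threshold of 0.01, and few stand far above it.

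Names were available for 4260 of the genes tested, and these were the genes on the DEG lists of the study, drawn from contrasts that share these samples. Among them 1108 (26%) passed both thresholds, 13.6% higher and 12.4% lower, against 361 of 9218 genes (3.92%) without a name. Counts within the gene lists below are therefore to be read against these shares of named genes, and they are not independent evidence of a direction.

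The smallest FDR of all genes, 0.00362, belonged to a gene with no paired symbol, ENSCAFG00000000799, which had 0.920, 1.98 and 1.74 CPM on day 10 and 42.6, 20.3 and 20.7 CPM on day 20. It was singled out after its values were seen. Of the named genes that rose, ARHGAP21 had the smallest P-value. ARHGAP21, a GTPase-activating protein, had 126, 117 and 115 CPM on day 10 and 407, 428 and 338 CPM on day 20. Its log2 fold change was 1.71 (standard error 0.21, FDR = 0.0128), and it had stood at 128 ± 19.2 CPM on day 5 (SD, n = 4) and stood at 390 ± 82.3 CPM on day 30 (SD, n = 3). ZNF365 rose from 35.9 ± 8.10 to 116 ± 22.5 CPM and UNC79, a subunit of a sodium leak channel, from 34.2 ± 3.27 to 102 ± 28.7 CPM (SD, n = 3 each), with FDRs of 0.0219 and 0.0225. In all 3 genes the days were clearly apart. FMO4, a flavin-containing monooxygenase, had 42.2, 35.2 and 30.5 CPM on day 10 and 664, 167 and 216 CPM on day 20, a log2 fold change of 3.28 (standard error 0.48, FDR = 0.0225). Its day 20 values differed among the dogs, and the lowest was still several times the highest day 10 value.

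PRKG2, the type II cGMP-dependent protein kinase, was near 0 on day 10, at 0.460, 0.0901 and 0.116 CPM, and had 23.2, 10.2 and 2.27 CPM on day 20. The log2 fold change of 5.83 (standard error 0.88, FDR = 0.0225) thus spanned a range among the day 20 dogs. CAPN6, a calpain without protease activity, had 0 reads in all day 10 controls and 382 in the day 20 controls, at least 126-fold more against a floor of 3 reads over the group. Its day 20 values were 18.4, 1.97 and 1.91 CPM, so day 20 control 1 stood well above the other two.

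The same sample led another of the largest increases. TNN, the matrix protein tenascin N, had 7.67, 6.40 and 4.93 CPM on day 10 and 1049, 53.9 and 104 CPM on day 20 (log2 fold change 5.99, standard error 1.28, FDR = 0.0429). KLK2, a kallikrein serine protease, rose from 205, 6.53 and 42.0 CPM to 6383, 4550 and 3707 CPM, a log2 fold change of 5.85 (standard error 1.57, FDR = 0.0657). In this gene all day 20 dogs were high. Reads of KLK2 could be shared with other kallikreins of similar sequence. On day 5 it had 3.62 ± 6.68 CPM (SD, n = 4), and on day 30 it had 8926 ± 4140 CPM (SD, n = 3).

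Of the genes that fell, CDKN2C, which encodes the CDK inhibitor p18, had the smallest P-value of those with a name. It had 97.7, 51.5 and 99.8 CPM on day 10 and 18.5, 23.9 and 22.7 CPM on day 20, a log2 fold change of -1.93 (standard error 0.26, FDR = 0.0168). EMR4, an adhesion receptor of myeloid cells, fell from 3.36 ± 0.852 to 0.190 ± 0.0415 CPM (FDR = 0.0225), and ADM5, a peptide of the adrenomedullin family, from 37.4 ± 10.6 to 5.82 ± 2.63 CPM (SD, n = 3 each, FDR = 0.0255). MOXD1, a relative of dopamine beta-hydroxylase, had 24.8 ± 12.2 CPM on day 10 and 4.67 ± 1.52 CPM on day 20 (log2 fold change -2.41, standard error 0.41). PPM1J, a protein phosphatase, had 4.78 ± 1.11 and 1.05 ± 0.209 CPM (log2 fold change -2.18, FDR = 0.0357). In these 5 genes no day 20 value reached a day 10 value.

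Other large decreases rested on 1 or 2 samples of day 10. GGT6, a gamma-glutamyltransferase, had 16.5 CPM in day 10 control 4 and at most 0.0766 CPM in the other 5 samples. Its 287 reads on day 10 against 0 on day 20 made a difference of at least 96.7-fold, carried by 1 dog. SAA1, an acute-phase protein whose reads could be shared with related SAA genes, had 2.38, 0.360 and 16.3 CPM on day 10. On day 20 there was 1 read over the 3 samples.

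Of 25 gene lists, the fatty acid and lipid droplet list held the most increases and the cytosolic ribosomal proteins the most decreases.

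**Figure D3:**
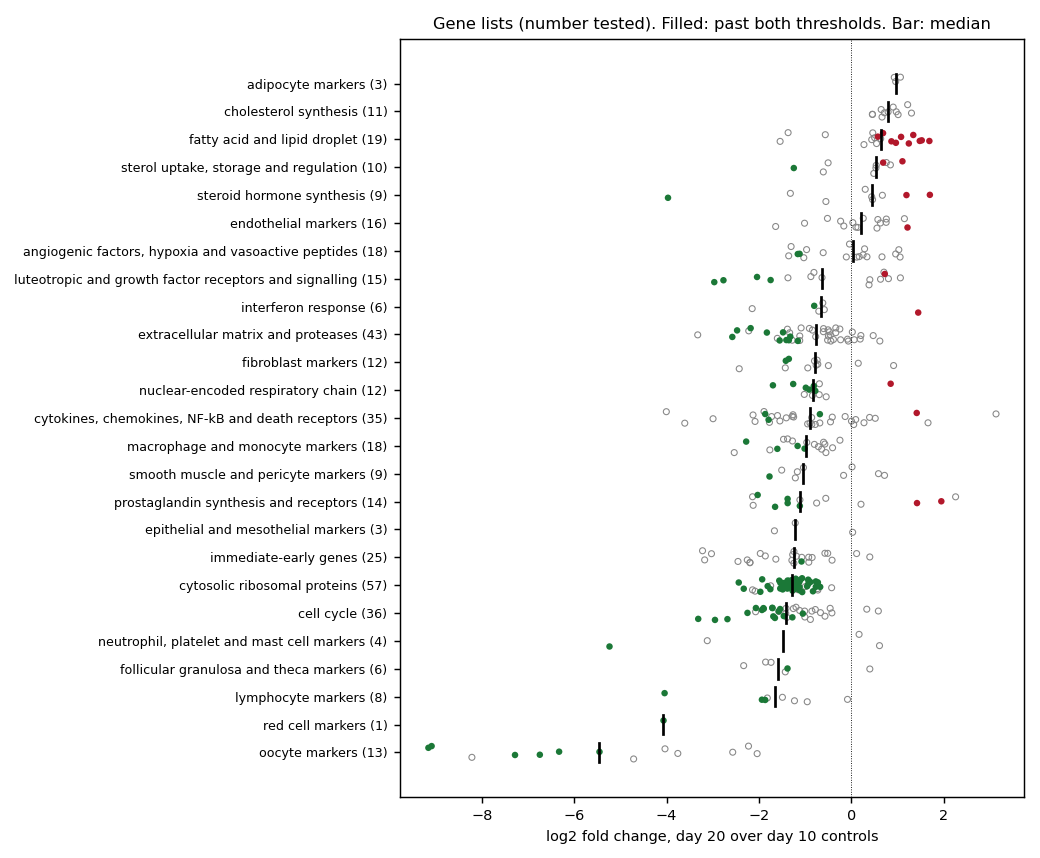
Log2 fold change of day 20 over day 10 controls (x) for every tested member of 25 gene lists (y, number tested in parentheses), with filled points past both thresholds and a bar at the median. Fatty acid genes lie mostly to the right with 10 of 19 filled, ribosomal protein genes all to the left with 48 of 57 filled, and oocyte markers farthest to the left.

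Of 19 genes of fatty acid synthesis and handling tested, 10 were higher on day 20, 0 were lower (2 in the 6 samples alone and 3 with DESeq2 on the 13 controls), and the median log2 fold change was 0.64, against -0.07 for all named genes. SCD, the desaturase that makes oleic acid, had 1030, 837 and 941 CPM on day 10 and 1818, 2527 and 2325 CPM on day 20 (log2 fold change 1.25, standard error 0.24, FDR = 0.0392). LPIN1, a phosphatidate phosphatase on the way to triglyceride, had 29.8, 23.9 and 22.7 CPM and then 50.5, 71.4 and 72.1 CPM, a log2 fold change of 1.34 (standard error 0.23, FDR = 0.0353). ELOVL5, which lengthens polyunsaturated fatty acids, rose from 79.5, 89.8 and 109 CPM to 345, 211 and 248 CPM (log2 fold change 1.53, standard error 0.28, FDR = 0.0370). The days did not overlap in any of the 3 genes.

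ACACA, the enzyme of malonyl-CoA synthesis, and ACLY, which supplies acetyl-CoA from citrate, had log2 fold changes of 1.08 (FDR = 0.0392) and 1.69 (FDR = 0.0646). In ACLY day 20 control 1, with 737 CPM, barely exceeded the highest day 10 sample, while controls 2 and 3 had 1863 and 2594 CPM. The glycerol acyltransferases GPAM and GPAT4 and the acyl-CoA synthetase ACSL1 rose by smaller amounts, with log2 fold changes of 0.87, 0.69 and 0.58. ACADL, an enzyme of fatty acid oxidation, and ABCD3, a peroxisomal transporter, also rose, by 1.49 and 0.97 on the log2 scale. With the P threshold alone, between 7 and 9 genes of the list were higher in the fits that left a sample out. FADS1 and FADS2, the desaturases of polyunsaturated fatty acids, did not pass the test, with FDRs of 0.554 and 0.476.

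The cholesterol synthesis genes had positive fold changes throughout, but none of the 11 passed both thresholds. The log2 fold changes ran from 0.46 to 1.31 around a median of 0.80. FDFT1, squalene synthase, had 397, 200 and 193 CPM on day 10 and 396, 948 and 608 CPM on day 20 (log2 fold change 1.31, standard error 0.47, FDR = 0.104). In this gene day 20 control 1 stayed within the range of day 10 while the other day 20 dogs lay above it. Summed over the list, the same sample had 2358 CPM against 5941 and 4450 CPM in controls 2 and 3, and the day 10 samples had 1798 to 3038 CPM. With DESeq2 on the 13 controls 2 of the genes passed, and with edgeR on the 6 samples alone 3. By the P threshold alone, 2 were higher without day 10 control 2 or without day 20 control 1.

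Among the genes of sterol uptake, storage and regulation 2 of 10 rose and 1 fell. NPC1, which exports cholesterol from lysosomes, rose from 71.7 ± 8.67 to 116 ± 24.9 CPM (FDR = 0.0810), and STARD4, a cytosolic sterol carrier, from 34.4 ± 11.5 to 74.1 ± 30.5 CPM (SD, n = 3 each, FDR = 0.0858). In STARD4 day 20 control 1, at 43.9 CPM, lay below day 10 control 2, at 47.7 CPM. Both calls were lost when the 10 most counted genes were left out before scaling. The number higher, at the P threshold alone, was 0 without day 10 control 3 or 4, 3 without day 20 control 1 and 1 without each other sample. The number lower was then 0 without day 20 control 1 or 2. NR1H3, the oxysterol receptor LXR alpha, fell from 22.6, 21.6 and 26 CPM to 7.25, 9.08 and 13.3 CPM (log2 fold change -1.24, standard error 0.33, FDR = 0.0649).

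In the steroid hormone list, 2 of 9 genes rose and 1 fell, or 2 fell with RLE factors or with the 10 most counted genes left out. When a sample was left out, between 1 and 3 at the P threshold alone were higher and 0 or 1 lower, with 0 lower without day 10 control 2, day 20 control 1 or day 20 control 2. NR5A2, the nuclear receptor LRH-1 that activates steroidogenic promoters, had 181, 210 and 180 CPM on day 10 and 514, 492 and 304 CPM on day 20. The log2 fold change was 1.20 (standard error 0.25, FDR = 0.0398), and the values of days 5 and 30 were 256 ± 59.5 CPM (SD, n = 4) and 325 ± 25.1 CPM (SD, n = 3). CYP19A1, the aromatase that makes oestrogens, rose from 692, 354 and 354 CPM to 1724, 2056 and 782 CPM (log2 fold change 1.70, standard error 0.50, FDR = 0.0749). Day 20 control 3 was only a little above day 10 control 2, and the other samples were well apart. HSD17B1, which makes oestradiol from oestrone, had 9.43, 1.17 and 0.348 CPM and then 0.118, 0.239 and 0.310 CPM. Its fall (log2 fold change -3.97, standard error 1.18, FDR = 0.0761) rested largely on day 10 control 2, 1 of the 2 samples high in oocyte genes. HSD17B7, which serves both cholesterol and oestradiol synthesis, had 27.2 ± 12.2 and 47.2 ± 11.5 CPM (SD, n = 3 each, FDR = 0.173).

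The receptors of luteotropic hormones did not pass edgeR's test on the 13 controls. PRLR had 155, 251 and 170 CPM on day 10 and 385, 351 and 272 CPM on day 20, which did not overlap but missed the threshold (log2 fold change 0.81, standard error 0.29, FDR = 0.102). LHCGR had 38.9, 38.3 and 15.1 CPM and then 113, 51.0 and 29.6 CPM (log2 fold change 1.07, standard error 0.47, FDR = 0.150). PRLR was called higher by DESeq2 on the 6 samples alone, and LHCGR by edgeR without day 20 control 3. FSHR, the receptor of follicle-stimulating hormone, had 1495 ± 622 and 1978 ± 344 CPM (SD, n = 3 each, FDR = 0.394). NR3C1, the glucocorticoid receptor, rose from 97.1, 101 and 102 CPM to 179, 176 and 142 CPM, a log2 fold change of 0.73 (standard error 0.22, FDR = 0.0780), a call lost when the 10 most counted genes were left out. The other calls in this list of 15 were 4 decreases. The number higher was 3 with DESeq2 on the 13 controls and 4 without day 20 control 3. At the P threshold alone it was 0 without day 10 control 2, day 20 control 1 or day 20 control 2. The number lower, at the P threshold alone, was 1 without day 20 control 1 or 2 and 2 without day 10 control 3 or 4. The 4 decreases were those of SOCS3, an inhibitor of cytokine receptor signalling, and of IGFBP2, IGFBP3 and IGFBP4, which bind insulin-like growth factors.

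IGFBP3 had 7.13, 24.7 and 9.27 CPM on day 10 and 1.77, 0.299 and 3.15 CPM on day 20 (log2 fold change -2.97, standard error 0.77, FDR = 0.0646). IGFBP4 had 73.2, 72.0 and 109 CPM and then 17.1, 15.2 and 43.5 CPM (log2 fold change -1.75, standard error 0.50, FDR = 0.0719). SOCS3 fell from 10.4, 15.2 and 26.8 CPM to 0.531, 2.21 and 4.91 CPM, with an FDR of 0.0851. In each of the 3 genes the days were apart, and day 20 control 3 came closest to day 10.

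The prostaglandin genes moved in both directions, with 5 of 14 lower and 2 higher on day 20 and a median log2 fold change of -1.11. With the P threshold alone the number higher was 0 without day 10 control 3 and 1 without each other sample. The number lower was then 3 without day 10 control 3. With both thresholds, DESeq2 on the 13 controls gave 7 lower and 3 higher. On the side of synthesis, PTGES, the terminal synthase of prostaglandin E2, had 73.2, 34.4 and 75.9 CPM on day 10 and 13.4, 24.6 and 20.5 CPM on day 20 (log2 fold change -1.65, standard error 0.42, FDR = 0.0609). PTGS2, which makes the common precursor, had 111, 57.9 and 155 CPM and then 2.95, 53.2 and 17.5 CPM. Its log2 fold change of -2.14 (standard error 0.75) missed the threshold with an FDR of 0.101, although no day 20 value reached the lowest of day 10, and the day 20 dogs differed widely. The means of PTGS2 were 207 ± 107 CPM on day 5 (SD, n = 4) and 11.4 ± 2.33 CPM on day 30 (SD, n = 3).

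PTGIS, prostacyclin synthase, fell from 101, 363 and 356 CPM to 33.6, 82.7 and 85.0 CPM (log2 fold change -2.03, standard error 0.49, FDR = 0.0564). TBXAS1, thromboxane synthase, fell from 12.7 ± 4.13 to 4.89 ± 1.81 CPM (SD, n = 3 each, FDR = 0.0583). AKR1B1, an aldose reductase that can make prostaglandin F2 alpha, had 2138, 4929 and 3453 CPM and then 1067, 1531 and 1449 CPM (log2 fold change -1.38, standard error 0.41, FDR = 0.0754). In these 3 genes no values overlapped. PTGDS, a prostaglandin D2 synthase, had 106, 59.0 and 29.2 CPM on day 10 and 3.18, 9.02 and 32.3 CPM on day 20, which overlapped and did not pass (FDR = 0.129).

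In this list 1 gene of breakdown and 1 receptor rose, and another receptor fell. HPGD, the dehydrogenase that inactivates prostaglandins, rose from 14.3, 7.12 and 7.65 CPM to 61.6, 15.3 and 35.2 CPM (log2 fold change 1.95, standard error 0.64, FDR = 0.0887), and its lowest day 20 value only just passed the highest of day 10. The call of HPGD was lost when the 10 most counted genes were left out. PTGFR, the receptor of prostaglandin F2 alpha, had 757, 852 and 1082 CPM on day 10 and 2386, 2926 and 1916 CPM on day 20. Its log2 fold change was 1.43 (standard error 0.38, FDR = 0.0655), with the days well apart. PTGER4, a receptor of prostaglandin E2, fell from 9.81, 8.83 and 8.58 CPM to 2.89, 4.24 and 5.43 CPM (log2 fold change -1.11, standard error 0.27, FDR = 0.0561). PTGER2, another receptor of prostaglandin E2, had at most 2.03 CPM in any of the 6 samples and an FDR of 0.551, and PPARG, a nuclear receptor for prostaglandin J2 among other ligands, had an FDR of 0.231. Of 24 prostaglandin genes listed only 14 had a name here.

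**Figure D4:**
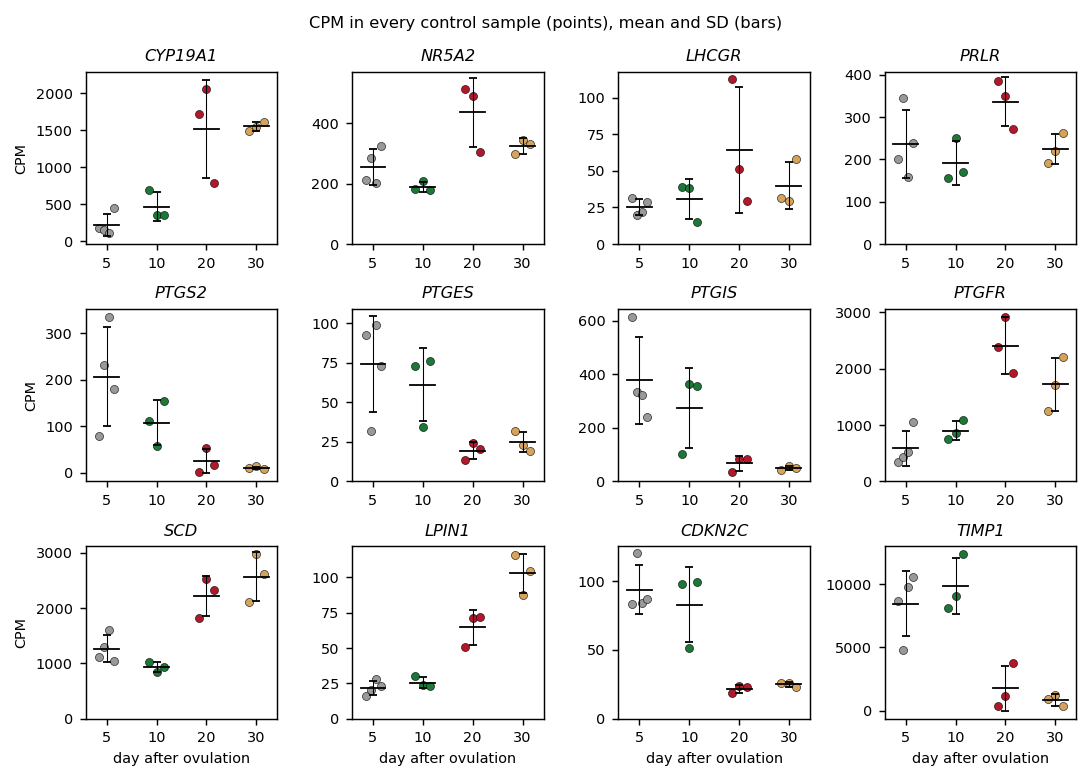
CPM (y) of 12 genes in every control sample (points) by day after ovulation (x), with the mean and SD as bars (n = 4 on day 5 and n = 3 on the other days). CYP19A1, NR5A2, PTGFR, SCD and LPIN1 are higher on day 20 than on day 10, PTGES, PTGIS, CDKN2C and TIMP1 lower, and LHCGR, PRLR and PTGS2 missed the test.

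Of 36 genes of cell division tested, 17 were lower on day 20 and 0 higher, the median log2 fold change was -1.42, and 34 of the fold changes were negative. CDC20, the activator of the anaphase-promoting complex, had 8.51, 6.98 and 12.7 CPM on day 10 and 0.708, 1.37 and 2.27 CPM on day 20 (log2 fold change -2.68, standard error 0.52, FDR = 0.0392). Among the genes of DNA replication, TK1, MCM2 and MCM5 fell by 2.95, 1.69 and 2.25 on the log2 scale, with FDRs of 0.0462, 0.0581 and 0.0646. Of the mitotic genes, UBE2C, KIF20A, BIRC5, AURKB and PLK1 fell, with log2 fold changes from -2.06 to -1.27. CDKN1A, which encodes the CDK inhibitor p21, and CCND2, a D-type cyclin, had the only positive fold changes of the list, 0.59 and 0.34, with FDRs of 0.381 and 0.369.

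Summed over the 36 genes, the day 10 controls had 910, 1013 and 1164 CPM and the day 20 controls 385, 469 and 536 CPM. With the P threshold alone, between 6 and 16 of the 36 genes were lower in the 6 fits that left a sample out, and 34 fold changes were negative in each.

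Of 57 identifiers of cytosolic ribosomal proteins tested, 48 were lower on day 20 and 0 higher, and all 57 fold changes were negative, with a median of -1.28 and a range from -2.44 to -0.42. RPL32 had 1963, 1560 and 1683 CPM on day 10 and 496, 805 and 841 CPM on day 20 (log2 fold change -1.28, standard error 0.27, FDR = 0.0425). The lowest value was that of day 20 control 1, and the days were well apart. RPS26 had the largest fall, from 933, 472 and 580 CPM to 73.7, 96.3 and 197 CPM, and RPS24 the smallest, with 484 ± 36.4 and 361 ± 104 CPM (SD, n = 3 each, FDR = 0.258).

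The list took 66036, 53531 and 51265 CPM of the day 10 controls and 17841, 26144 and 32630 CPM of the day 20 controls. On day 5 it took between 28964 and 57029 CPM. Between 20 and 48 of the 57 had an unadjusted P under 0.01 in the fits that left a sample out, fewest without day 20 control 1. Ribosomal protein genes have processed copies of near-identical sequence, so reads of single members could be shared with them, and RPS10 and RPS27 each stood on 2 identifiers. The direction held with RLE factors and with the 10 most counted genes left out, which each gave 52 decreases. With both thresholds there were 26 decreases without day 10 control 3 and 9 in the fit of all 26 samples. There were 0 without day 10 control 4 or with a block for the replicate number. All 57 fold changes were negative in each of these fits.

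Nuclear genes of the respiratory chain were represented by 12 named members, of which 6 fell and 1 rose. The number lower was 9 with the 10 most counted genes left out and 10 with DESeq2 on the 13 controls. In all 12 the days did not overlap, which held for 36.2% of all genes, and these 12 were named because they stood on the DEG lists. UQCRC1 and CYC1, subunits of complex III, fell by 0.98 and 1.26 on the log2 scale, with FDRs of 0.0858 and 0.0901. NDUFB9 and NDUFB11, small subunits of complex I, fell from 54.0 ± 6.16 to 28.7 ± 4.35 CPM and from 116 ± 21.9 to 67.8 ± 15.8 CPM (SD, n = 3 each). NDUFS1, the largest subunit of that complex, went the other way, from 282, 269 and 277 CPM to 531, 587 and 379 CPM (log2 fold change 0.85, standard error 0.23, FDR = 0.0646). With the P threshold alone, 0 of the decreases remained when day 10 control 2, day 10 control 4, day 20 control 1 or day 20 control 2 was left out.

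Of 43 genes of the matrix and its proteases, 10 were lower on day 20 and 0 higher, where 12.4% of all named genes were lower, and the median log2 fold change was -0.77. With the P threshold alone, the number lower was 3 without day 20 control 1, 4 without day 20 control 2, 5 without day 10 control 3 and 16 without day 20 control 3. TIMP1, the tissue inhibitor of metalloproteinases, had 8109, 9054 and 12361 CPM on day 10 and 384, 1167 and 3770 CPM on day 20 (log2 fold change -2.47, standard error 0.67, FDR = 0.0672). VCAN, the proteoglycan versican of loose matrix, fell from 177, 594 and 265 CPM to 27.8, 60.7 and 85.3 CPM (log2 fold change -2.58, standard error 0.58, FDR = 0.0497). MMP2, a gelatinase, had 344, 563 and 498 CPM and then 87.4, 196 and 248 CPM (log2 fold change -1.40, standard error 0.35, FDR = 0.0581). In all 3 the days were apart, and day 20 control 3 was the highest of its day.

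MMP14, which activates MMP2, MMP11, the urokinase PLAU with its receptor PLAUR, the crosslinking enzyme LOXL1 and THBS1 were among the other decreases. THBS1, a matrix protein that restrains vessel growth, had 121, 375 and 186 CPM on day 10 and 43.3, 140 and 90.5 CPM on day 20, which overlapped (FDR = 0.0851). The fibrillar collagens did not pass the test. COL1A1, COL1A2 and COL3A1 had log2 fold changes of -0.47, -0.08 and -0.49, with FDRs of 0.494, 0.888 and 0.300. On day 5 their means had been 2846, 6091 and 4659 CPM, against 742, 2470 and 2005 CPM on day 10. In edgeR's test of that earlier step no gene was called, and DESeq2 called 125.

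Markers of other cells were followed to see which changed with the day. Those of macrophages and monocytes were negative in all 18 genes, with 4 called (8 with DESeq2 on the 13 controls, and between 0 and 7 at the P threshold alone with a sample left out, 0 without day 20 control 1) and a median log2 fold change of -0.99. TYROBP, a signalling adaptor of myeloid cells, had 21.9, 14.5 and 20.0 CPM on day 10 and 4.30, 4.54 and 9.67 CPM on day 20 (log2 fold change -1.60, standard error 0.42, FDR = 0.0646). AIF1 fell from 22.3 ± 1.51 to 9.98 ± 1.60 CPM (SD, n = 3 each, FDR = 0.0701), and CD68 missed the threshold (FDR = 0.0950). The list's summed level was 515, 556 and 653 CPM on day 10 and 320, 334 and 304 CPM on day 20, with CTSS its most abundant gene.

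Only 8 of the 34 lymphocyte markers listed had a name here, so their sum does not give the level of lymphocyte RNA. These 8 genes had a summed level of 16.6 to 19.2 CPM on day 10 and 4.96 to 6.51 CPM on day 20. BLK, a kinase of B cells, CD22, a B cell receptor, and CCL5, a chemokine of T cells, fell, and CD3G had an FDR of 0.951. BLK had 2.61, 2.39 and 0.927 CPM on day 10 and 0.177, 0.0597 and 0.103 CPM on day 20 (log2 fold change -4.04, standard error 0.78, FDR = 0.0392). MS4A2, a subunit of the IgE receptor of mast cells, had 2.84, 2.48 and 8 CPM and then 0, 0.0597 and 0.259 CPM (FDR = 0.0646).

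Endothelial markers showed no common change. Their summed level was 1070, 1551 and 1831 CPM on day 10 and 1724, 1733 and 1944 CPM on day 20, and 1 of 16 genes rose and 0 fell. That gene was NOSTRIN, which traffics nitric oxide synthase, with 12.4, 9.23 and 14.0 CPM and then 31.6, 33.1 and 17.1 CPM (log2 fold change 1.20, standard error 0.39, FDR = 0.0864), a call lost when the 10 most counted genes were left out. PECAM1, CDH5 and VWF, the defining markers, had log2 fold changes of -0.51, 0.58 and 0.15 and FDRs above that of NOSTRIN, at 0.361, 0.304 and 0.804. The VEGF receptors FLT1 and KDR had log2 fold changes of 1.15 and 0.56, with FDRs of 0.104 and 0.267.

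Of the smooth muscle and pericyte markers 1 of 9 fell, where 12.4% of all named genes were lower, and 3 of the 9 fold changes were positive. The gene was DES, the muscle intermediate filament desmin, from 36.7, 60.4 and 33.3 CPM to 8.67, 9.44 and 19.9 CPM (log2 fold change -1.78, standard error 0.39, FDR = 0.0440). The list summed to 958, 784 and 580 CPM on day 10 and 624, 694 and 889 CPM on day 20, which overlapped. Of 12 fibroblast markers, PDPN and LOXL1 fell. At the P threshold alone, the number lower was 1 without day 10 control 2, day 20 control 1 or day 20 control 2. Without day 20 control 3 it was 4. PDPN, the stromal surface protein podoplanin, had 99.9, 187 and 191 CPM on day 10 and 49.0, 60.7 and 69.5 CPM on day 20 (log2 fold change -1.42, standard error 0.29, FDR = 0.0398). PDGFRA, a defining marker, did not pass, with 92.0, 168 and 74.5 CPM and then 45.9, 66.3 and 90.1 CPM (FDR = 0.195). The fibroblast list summed to between 667.5 and 1015 CPM on day 10 and between 303.5 and 616 CPM on day 20, which did not overlap.

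**Figure D5:**
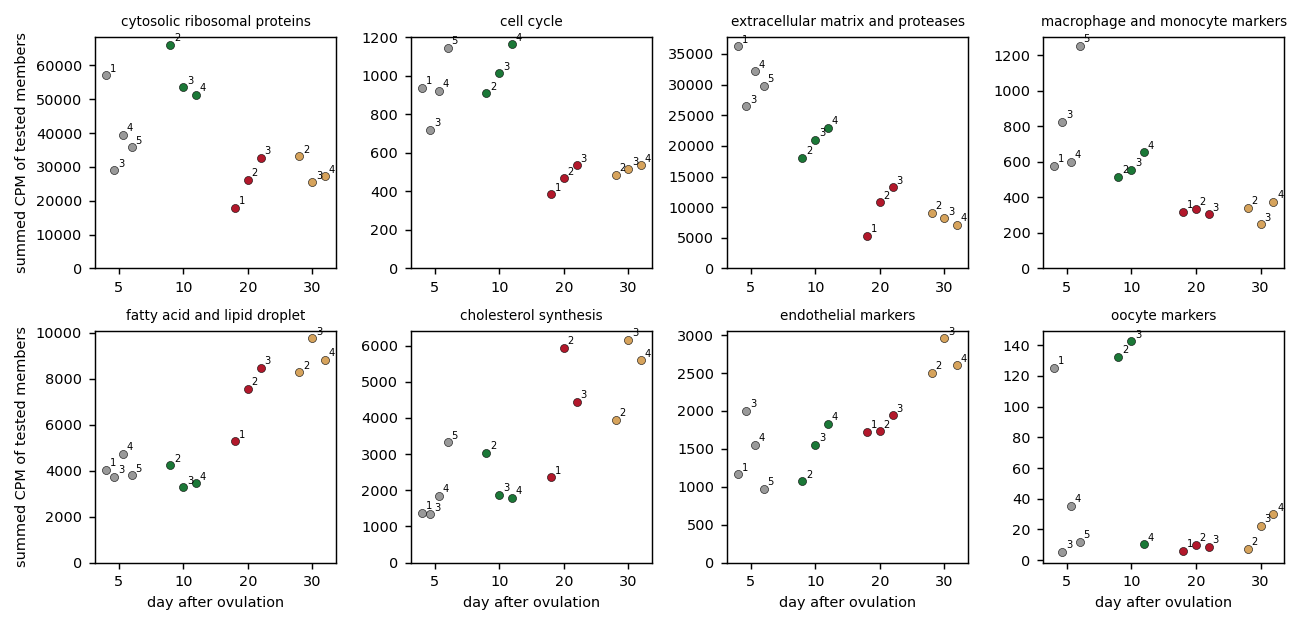
Summed CPM of the tested members (y) of 8 gene lists in each control sample (points, numbered) by day after ovulation (x). Ribosomal, cell cycle, matrix and macrophage sums are lower in all day 20 than in all day 10 samples, fatty acid sums higher, cholesterol and endothelial sums overlap, and oocyte sums stand out in day 5 control 1 and in day 10 controls 2 and 3.

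Of the 6 samples, only day 10 controls 2 and 3 had high summed oocyte markers, as given above, and of the day 5 controls sample 1 had 125.5 CPM. All 13 fold changes were negative and 6 passed both thresholds, against 10 with DESeq2 on the 13 controls. Members with few or no reads on day 20 passed the read filter through day 10 alone. Their negative sign was thus fixed by the filter, and the count of signs and the median of the list are no evidence of a direction. At the P threshold alone the number lower was 10 without day 10 control 4, the day 10 sample low in these genes, and between 1 and 3 without each other sample, 1 without day 20 control 3. ZP3, a zona pellucida glycoprotein, had 760 reads on day 10 and 1 on day 20, a ratio of 768 (95% interval 137 to 30372, for counting error only). PADI6, an enzyme of the oocyte cytoplasm, had 267 and 3 reads, a ratio of 89.9 (95% interval 30.4 to 439). With the 3 genes at 0 reads on day 20 set to their bounds, the median log2 fold change of the list was -4.71. GDF9 and NLRP14 had reads in all 6 samples. Of 6 follicular markers 1 was lower, SERPINE2, a protease inhibitor of granulosa cells, from 379, 522 and 524 CPM to 143, 144 and 258 CPM (FDR = 0.0719). At the P threshold alone, 0 were lower without day 20 control 1 or 2. The summed level of this list overlapped, with 1857, 2406 and 2973 CPM on day 10 and 1852, 2590 and 2399 CPM on day 20. FSHR, its most counted gene, had a higher mean on day 20 and did not pass, as given above.

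Among 35 genes of cytokines, chemokines, NF-kB and death receptors 3 fell and 1 rose. The number lower was 5 with RLE factors, 7 with the 10 most counted genes left out and 11 with DESeq2 on the 13 controls. At the P threshold alone it was 1 without day 20 control 1, where 3 were higher, 2 without day 10 control 3, day 10 control 4 or day 20 control 2, 5 without day 20 control 3 and 11 without day 10 control 2. CXCR4, the receptor of CXCL12, rose from 21.4, 22.2 and 44.0 CPM to 74.5, 68.3 and 91.7 CPM (log2 fold change 1.42, standard error 0.34, FDR = 0.0549). IL1RN, the interleukin 1 receptor antagonist, fell from 12.1 ± 4.79 to 3.49 ± 1.65 CPM (SD, n = 3 each, FDR = 0.0774), as did CCL5 and TNFRSF1A, a receptor of tumour necrosis factor. ICAM1, an adhesion molecule for leukocytes, and NFKBIA, the inhibitor of NF-kB, had FDRs of 0.0984 and 0.0975 but missed the P threshold. Of the death receptor pair, FAS had an FDR of 0.135 and FASLG of 0.251, and NFKB1 and TGFBR1 had FDRs of 0.985 and 0.703. CXCL8, a chemokine that attracts neutrophils, differed widely among dogs of a day, with 31.0, 24.1 and 164 CPM on day 10 and 4.19, 929 and 996 CPM on day 20.

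Of the 25 immediate-early genes, which respond within minutes to stimuli and to tissue handling, 23 had negative fold changes and 1 passed (5 with DESeq2 on the 13 controls). It was BTG1, an antiproliferative factor, with 62.8 ± 20.8 and 29.4 ± 8.03 CPM (SD, n = 3 each, FDR = 0.0696). At the P threshold alone, 0 of the list were lower without day 10 control 3 or 4 or day 20 control 1 or 2. Without day 20 control 3, 4 were lower. FOS had 131, 805 and 844 CPM on day 10 and 37.6, 327 and 210 CPM on day 20, so day 10 control 2 lay within the range of day 20. Among angiogenic and hypoxia genes, BNIP3, a mitophagy receptor, and PFKFB3, an activator of glycolysis, fell from 84.4 ± 23.2 to 37.9 ± 2.92 CPM and from 49.4 ± 17.2 to 22.8 ± 6.57 CPM (SD, n = 3 each), with FDRs of 0.0672 and 0.0697. At the P threshold alone, the number lower in that list was 1 without day 10 control 3 and 0 without day 20 control 2. FGF1, a growth factor of vessels, had an FDR of 0.959.

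The step was then set beside the steps before and after it. With the same fit and thresholds 0 genes were called from day 5 to day 10 and 0 from day 20 to day 30, with 886 (6.57%) and 1181 genes (8.76%) at an unadjusted P under 0.05 in edgeR's test, and DESeq2 called 125 and 34. The tests of the difference between the steps called 0 genes against either neighbour, with 2012 (14.9%) and 2568 genes (19.1%) at an unadjusted P under 0.05, and DESeq2 called 359 and 782. For ARHGAP21 the log2 fold change was -0.10 in the step before, 1.71 from day 10 to day 20 and -0.0047 in the step after, and for CDKN2C it was -0.18, -1.93 and 0.20. For KLK2 the 3 values were 4.56, 5.85 and 0.87, and for LPIN1 0.24, 1.34 and 0.67. The steps share control samples, so that a high day 20 value enters both of the later ones.

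In dogs given firocoxib the same step was tested against that of the controls as an interaction over all 26 samples. No gene was called by edgeR, 1645 genes (12.2%) had an unadjusted P under 0.05, and DESeq2 called 576 genes. In 188 genes (1.39%) all day 20 samples lay below those of day 10 in the controls and above them in the treated dogs. The ribosomal gene RPL32 had 1414, 1740 and 995 CPM in the treated dogs of day 10 and 2184, 1967 and 1735 CPM in those of day 20, which overlapped. Its interaction log2 fold change of 1.82 did not pass the threshold (FDR = 0.107). NR5A2 and CYP19A1 had interactions of -2.36 and -1.65 on the log2 scale, with FDRs of 0.167 and 0.519.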

How the data were processed

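Poly-A RNA of CL tissue, trimmed from the ovary, was sequenced single end from TruSeq v2 libraries, a kit that does not mark strand, so antisense genes cannot be told apart. Per the methods, the authors used STAR for alignment to the CanFam3.1 genome and featureCounts for counting per gene. The deposited values are raw counts of 19856 genes per sample, neither normalized nor filtered. The study processed its samples at the same time. It removed 4 samples that it considered outliers by their correlations and scatter plots, and these were not analysed here. Among them were 1 day 10 control and 1 day 30 control. The correlations within a day and the spread between dogs given here are those of the samples kept.

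Genes that averaged 10 or more reads in the controls of either day were tested with edgeR 4.0.16 (R 4.3.3; TMM, robust quasi-likelihood) on the 13 controls in 4 day groups. A call needed P under 0.01 and a Benjamini-Hochberg FDR under 0.1. Standard errors are on the log2 scale. DESeq2 1.42.0, limma 3.58.1 (voom), RLE factors, other filters, thresholds and samples, a replicate block and leaving out each sample were the alternatives. Principal components used log2 CPM with a prior count of 2. The scripts were tested on simulated data.

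Symbols came from the study's DEG tables, which paired 4347 of 4888 identifiers. The members and lists were chosen with earlier results of these data known. Named genes were the 2 called members with the smallest P per list and direction (or the most counted member of a list with no call), the 5 called named genes per direction with the smallest P and no overlap, the 5 with the largest fold change at a mean of at least 5 CPM, and genes of luteal function that the study followed. No gene met the further rule on a difference from treated dogs. Some genes that this rule names are not reported here. Other genes were named after their values were seen. No label gives a batch. Replicates were different dogs. Precision follows from the totals in the results, and intervals cover counting error only.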

Additional observations from a re-analysis of the deposited data

Results flagged for a closer look

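In 7 of the genes named, the 3 control samples of day 20 all lay below those of day 10 while in the dogs given firocoxib the 3 samples of day 20 all lay above those of day 10. This pattern held for 188 of all 13478 genes (1.39%). The 7 came from the 80 genes named by rule. Names came from the DEG lists of the study, which include contrasts of treated with control dogs that share these samples. The share of the pattern among named genes was not computed, so the 7 are not to be read against the share of all genes. The difference was tested as an interaction in edgeR, and none of the 7 passed. The interaction, on the log2 scale as treated minus control step, was 5.27 for HSD17B1 (FDR = 0.196), 4.86 for IGFBP3 (FDR = 0.111), 4.22 for ICAM1 (FDR = 0.111) and 2.16 for NFKBIA (FDR = 0.167). In the controls ICAM1 had 19.9, 42.0 and 61.5 CPM on day 10 and 8.43, 18.3 and 19.9 CPM on day 20, so day 10 control 2 and day 20 control 3 were tied at this precision. It had 37.0, 35.1 and 41.1 CPM in the treated dogs of day 10 and 60.9, 350 and 367 CPM in those of day 20. IGFBP3 had 5.24, 4.23 and 5.82 CPM and then 20.9, 27.9 and 7.15 CPM.

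For the oocyte genes the interactions were 11.82 for ZP3 (FDR = 0.128), 8.95 for PADI6 (FDR = 0.134) and 9.69 for BMP15 (FDR = 0.143), fitted values that depend on the prior count because control samples were at 0. ZP3 had 0.0596, 7.35 and 10.2 CPM in the treated dogs of day 10 and 32.7, 44.5 and 37.6 CPM in those of day 20.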

How the results depend on the processing

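The count of 1469 genes moved with the samples and the tool. DESeq2 called 2297 genes on the 13 controls (1170 higher, 1127 lower) and 2742 on the 6 samples alone (1430 and 1312). edgeR on the 6 samples alone gave 2090 genes (1231 higher, 859 lower), on all 26 samples 56 genes (15 higher, 41 lower), and at an FDR under 0.05 209 genes (142 higher, 67 lower). Leaving out 1 sample gave between 1 and 2043 genes, between 1 and 1084 higher and between 0 and 959 lower. With P under 0.01 alone, chosen after seeing the data, the counts were 814 and 846 without day 10 control 2 or 4, 546 and 766 without day 20 control 1 or 2, and up to 2043. DESeq2 called 125 genes from day 5 to day 10, 34 from day 20 to day 30, 359 and 782 for the differences from the step before and after, and 576 for the interaction, each 0 in edgeR. Leaving out 1 sample gave between 0 and 2 genes for the difference from the step after and between 0 and 66 for the interaction, 66 without day 20 control 3.

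Days 10 and 20 shared only replicate numbers 2 and 3. Same-numbered samples did not deviate together (mean correlation -0.0676 over 2 pairs, against 0.0191 over 7 other pairs). With the replicate block 4 genes were called (3 higher, 1 lower), and in the 6 samples alone 1015 (533 higher, 482 lower).

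Of the 80 genes named by rule, all kept their call and direction with RLE factors and with no filter. Leaving out 1 sample took the call from between 10 and 63 of them, 63 without day 10 control 4. The genes that turned direction had not been called. FGF1 was 0.10 with limma voom and -0.46 to 0.37 with 1 sample left out. NFKB1 was -0.051 without the 10 most counted genes, -0.0059 with DESeq2 on 6 samples, -0.026 with 26 samples, -0.0045 and -0.0030 with the block in 6 and 13 samples, and -0.11 to 0.19 with 1 sample left out. With 1 sample left out PTGER2 ran from -0.92 to 0.11 and TGFBR1 from -0.18 to 0.56. The 3 dogs a day and a biological coefficient of variation of 0.359 limit what could be called.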

Other observations

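Of the lists not yet described, the interferon response held 6 tested genes, of which 1 rose and 1 fell. HERC6, an interferon-induced gene, had 9.28, 12.2 and 17.4 CPM on day 10 and 25.9, 64.4 and 16.4 CPM on day 20, which overlapped (log2 fold change 1.45, edgeR FDR = 0.0907). This call was lost with the 10 most counted genes left out and in the 6 samples alone. PSMB9, a subunit of the immunoproteasome, fell by 0.80 on the log2 scale (FDR = 0.0646).

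None of 3 epithelial and mesothelial markers and none of 3 adipocyte markers passed. EPCAM, an epithelial adhesion molecule, had 30.1, 32.2 and 7.19 CPM on day 10 and 16.6, 2.99 and 10.4 CPM on day 20 (FDR = 0.314). LEP, which encodes leptin, had 18.9, 4.10 and 14.4 CPM and then 22.6, 20.6 and 29.4 CPM (FDR = 0.201), with all day 20 values above those of day 10. Among 18 angiogenic, hypoxia and vasoactive genes 2 fell and 0 rose, with a median log2 fold change of 0.04, which was -0.02 with the 10 most counted genes left out. At the P threshold alone, 1 fell without day 10 control 3 and 0 without day 20 control 2. Of 4 markers of neutrophils, platelets and mast cells 1 fell, MS4A2, and the single red cell marker, ALAS2, fell. With a sample left out, ALAS2 passed the P threshold alone only without day 10 control 3. MS4A2 did not pass it without day 20 control 2.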
